A study of Homo sapiens with 2 samples.

Results

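RNA levels of 34 genes of the unfolded protein response (UPR) and of protein processing in the endoplasmic reticulum (ER) were compared between CREB1 wild-type HCT116 cells and a CREB1 knockout clone of the same line. The genes encode ER stress sensors, chaperones, proteins of ER-associated degradation and the protein translocation machinery. They were chosen by symbol, and all 34 were found among the 57820 genes of the expression table. HCT116 is a human colorectal carcinoma line. The knockout was made, per the labels' protocols, with the PX461 plasmid carrying a Cas9 nickase and guide RNAs against CREB1, and the cells are 1 clone grown from a lone cell. Wild-type and knockout cells were kept in the same DMEM medium containing 10% fetal bovine serum, and had no drug or ER stress treatment that the labels name. There was 1 library of each genotype, so no difference below has a replicate check, and differences of the clone, the culture and the library cannot be told apart from those of the genotype.

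The ER folds and modifies secreted and membrane proteins, which enter it through the SEC61 channel as they are made. When unfolded proteins accumulate, the sensors IRE1 (encoded by ERN1), PERK (EIF2AK3) and ATF6 signal to the nucleus. IRE1 splices the XBP1 mRNA, and the XBP1 and ATF6 proteins activate chaperone and degradation genes through ER stress response elements in their promoters. CREB1, a transcription factor of the cAMP pathway, belongs to the same broad class of basic leucine zipper proteins as XBP1 and ATF6 and binds a related sequence, the cAMP response element.

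The expected counts, which are RSEM's estimates of reads per gene, summed to 34511071 for wild-type and 31178312 for knockout cells. The 34 genes held 0.311% of the wild-type counts (exact Clopper-Pearson 95% interval 0.309% to 0.313%) and 0.323% of the knockout counts (0.321% to 0.325%). The targeted gene CREB1 had 614 wild-type and 499 knockout counts, and a gene-level count does not check a small deletion. The 5 epithelial markers (EPCAM, CDH1, KRT8, KRT18 and KRT19) summed to 4007 and 3511 depth-scaled counts (CPM), all present in both libraries. The fibroblast, endothelial and leukocyte markers each summed to less than 3 CPM in either library. Of these, PECAM1 was not matched, and COL1A2, LUM, CDH5, PTPRC and CD3E had 0 counts in both. In a bulk library, fewer cells with an RNA and less RNA per cell cannot be told apart. Counts were scaled between the libraries with the TMM method, and each ratio below is the log2 of knockout over wild-type CPM. Its interval is the exact 95% interval from the 2 counts, and, like the intervals of shares, it covers counting error only. Summed over the 34 genes, the scaled values were 3187 CPM in wild-type and 3153 CPM in knockout cells, a log2 ratio of -0.02. This direction is opposite to that of their share of the unscaled counts.

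The upstream sequences of 6 genes are shown because their letters match ER stress response elements. They were also picked by ratio, as CALR, SDF2L1 and HERPUD1 were among the 4 lowest and HSPA5 among the highest. Whether these copies of the elements are used in these cells was not tested. The sequences are RefSeq promoter sequences of GRCh38.p14, 5′ to 3′ on the strand of the gene. They lie before the annotated start outside any exon of GENCODE 29. Capitals mark the fixed letters of an element.
HSPA5 (chr9:125241351-125241449, minus strand): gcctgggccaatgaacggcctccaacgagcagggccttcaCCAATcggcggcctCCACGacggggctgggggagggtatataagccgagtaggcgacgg
CALR (chr19:12938359-12938442, plus strand): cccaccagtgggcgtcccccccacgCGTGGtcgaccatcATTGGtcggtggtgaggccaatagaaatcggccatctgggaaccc
CRELD2 (chr22:49918514-49918612, plus strand): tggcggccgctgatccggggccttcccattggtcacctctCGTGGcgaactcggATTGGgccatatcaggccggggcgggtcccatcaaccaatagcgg
HERPUD1 (chr16:56931985-56932047, plus strand): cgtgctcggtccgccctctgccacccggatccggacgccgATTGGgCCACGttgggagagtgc
SDF2L1 (chr22:21642074-21642164, plus strand): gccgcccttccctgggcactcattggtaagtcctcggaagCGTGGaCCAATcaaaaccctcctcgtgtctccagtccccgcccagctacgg
HYOU1 (chr11:119057234-119057433, minus strand): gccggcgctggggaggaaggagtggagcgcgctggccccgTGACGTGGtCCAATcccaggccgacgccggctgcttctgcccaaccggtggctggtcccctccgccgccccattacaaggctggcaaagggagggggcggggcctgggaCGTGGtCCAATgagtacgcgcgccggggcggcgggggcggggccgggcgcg
HSPA5, CALR and CRELD2 hold the ER stress response element ERSE (CCAAT, any 9 bases and CCACG, on either strand), which in HSPA5 ended 48 bases before the start. HERPUD1, SDF2L1 and HYOU1 hold the shorter ERSE-II (ATTGG, any base and CCACG), HYOU1 2 copies of it, of which the upstream copy overlaps a UPR element (TGACGTGG). On the strand shown, CALR, CRELD2, SDF2L1 and HYOU1 hold the reverse complement of the ERSE or ERSE-II letters.

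The genes hardly differed between the libraries. At a mean of at least 1 CPM, 33 of the 34 were expressed, and 0 of these 33 differed by 1.5-fold or more in either direction, and hence 0 by 2-fold. Over all 12886 expressed genes, 5.5% were at least 1.5-fold lower and 5.25% at least 1.5-fold higher with an interval that excluded no difference, and 1.64% and 1.28% were so at 2-fold. All 33 had a mean of at least 5 CPM, and among the 10010 genes at that level the shares were 3.44% lower and 3.73% higher. With shares this small, 0 of 33 does not set these genes apart. The ratios ran from -0.44 for ERN1 to 0.26 for SYVN1, with a median of -0.01, against a median of 0.01 over all expressed genes. Below 0 were 17 of the 33, where 48.8% of all expressed genes lay below 0. With total counts in place of TMM, 8 of the 33 lay below 0, against 39.1% of all expressed genes.

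The spread around no difference was small. In 29 of the 33 genes the libraries differed by less than 1.2-fold, as they did for 66.0% of all genes at a mean of at least 5 CPM. The median distance from 0 was 0.08 on the log2 scale, and 0.18 over those genes. For 32 of the 33 the whole interval lay inside 1.5-fold, as it did for 82.7% of those genes. ERN1 was the exception, as its interval reached -0.69. With total counts, and with DESeq2 size factors, the number was 31 in place of 32. At this depth an interval extended 0.03 to either side for CANX (17324 and 16550 counts) and 0.29 to either side for SYVN1 (191 and 217 counts). The genes compared were not matched for level, and the part of level in these shares was not tested.

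**Figure D1:**
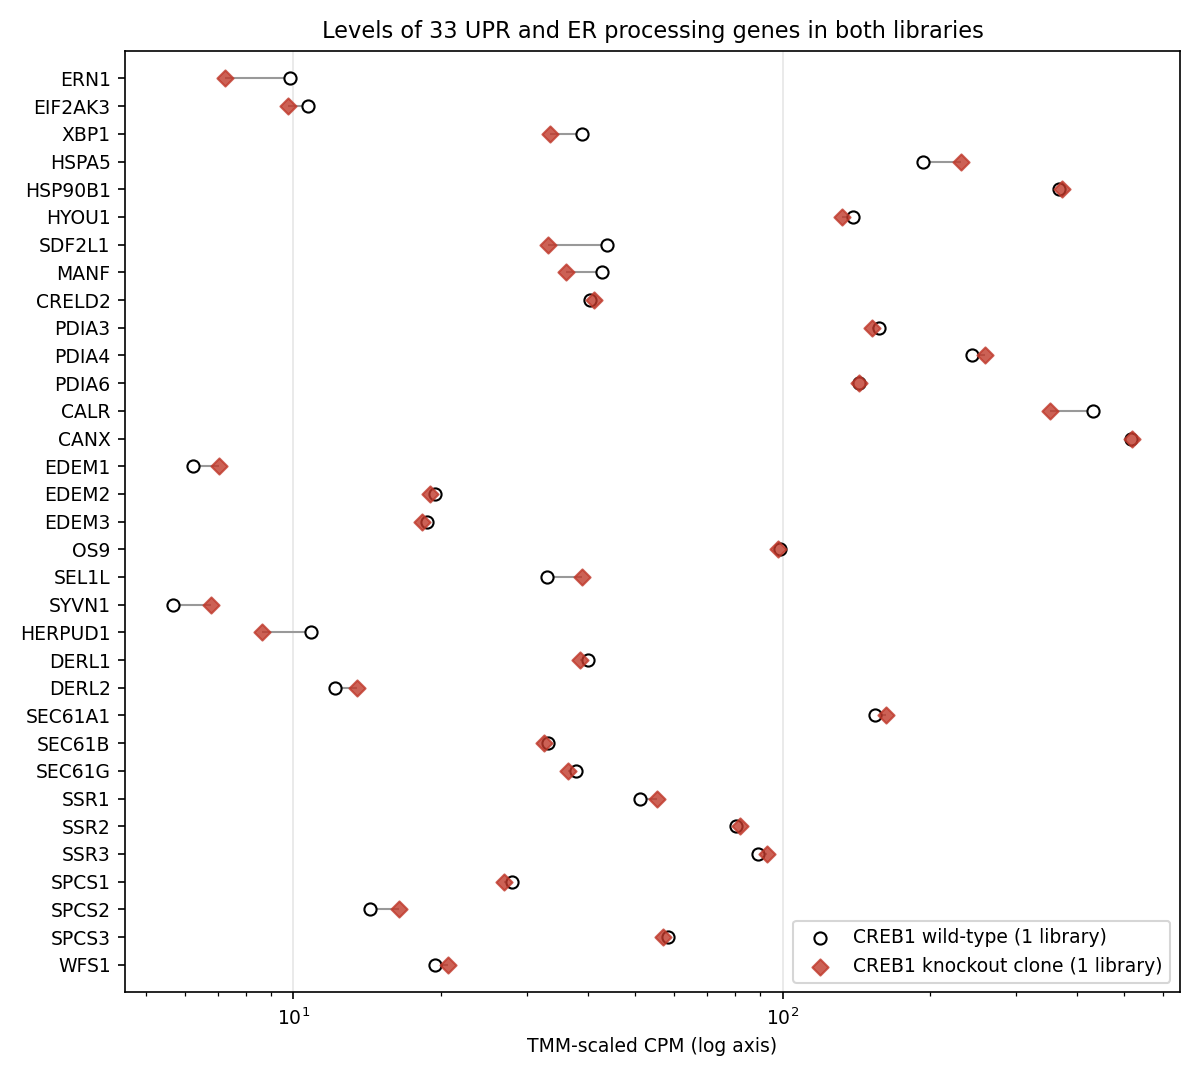
Levels of the 33 expressed UPR and ER processing genes in TMM-scaled CPM (log axis), with 1 open circle for the wild-type library and 1 red diamond for the knockout library in each row. The paired symbols lie close together from SYVN1 (5.68 and 6.79 CPM) to CANX (515 and 518 CPM), and the widest gap is that of ERN1 (9.84 and 7.26 CPM).

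Small as they were, some differences exceeded counting error. The interval lay wholly below no difference for 7 genes (ERN1, XBP1, HYOU1, SDF2L1, MANF, CALR and HERPUD1) and wholly above it for 6 (HSPA5, PDIA4, SEL1L, SEC61A1, SSR1 and SPCS2). Over all expressed genes these shares were 25.5% and 26.4%, and 7 and 6 of 33 are no larger. With total counts the split was 6 below and 14 above, because that scaling moves every ratio up by 0.07, and over all expressed genes the shares were then 18.8% and 35.2%. HYOU1 was the gene that left the lower set. HSPA5, PDIA4, SEL1L, SEC61A1 and SSR1 stayed in the higher set under each of the 5 scalings tried, and SPCS2 left it with DESeq2 size factors. Neither set is backed by replicates, and counting error leaves out the variation between cultures.

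**Figure D2:**
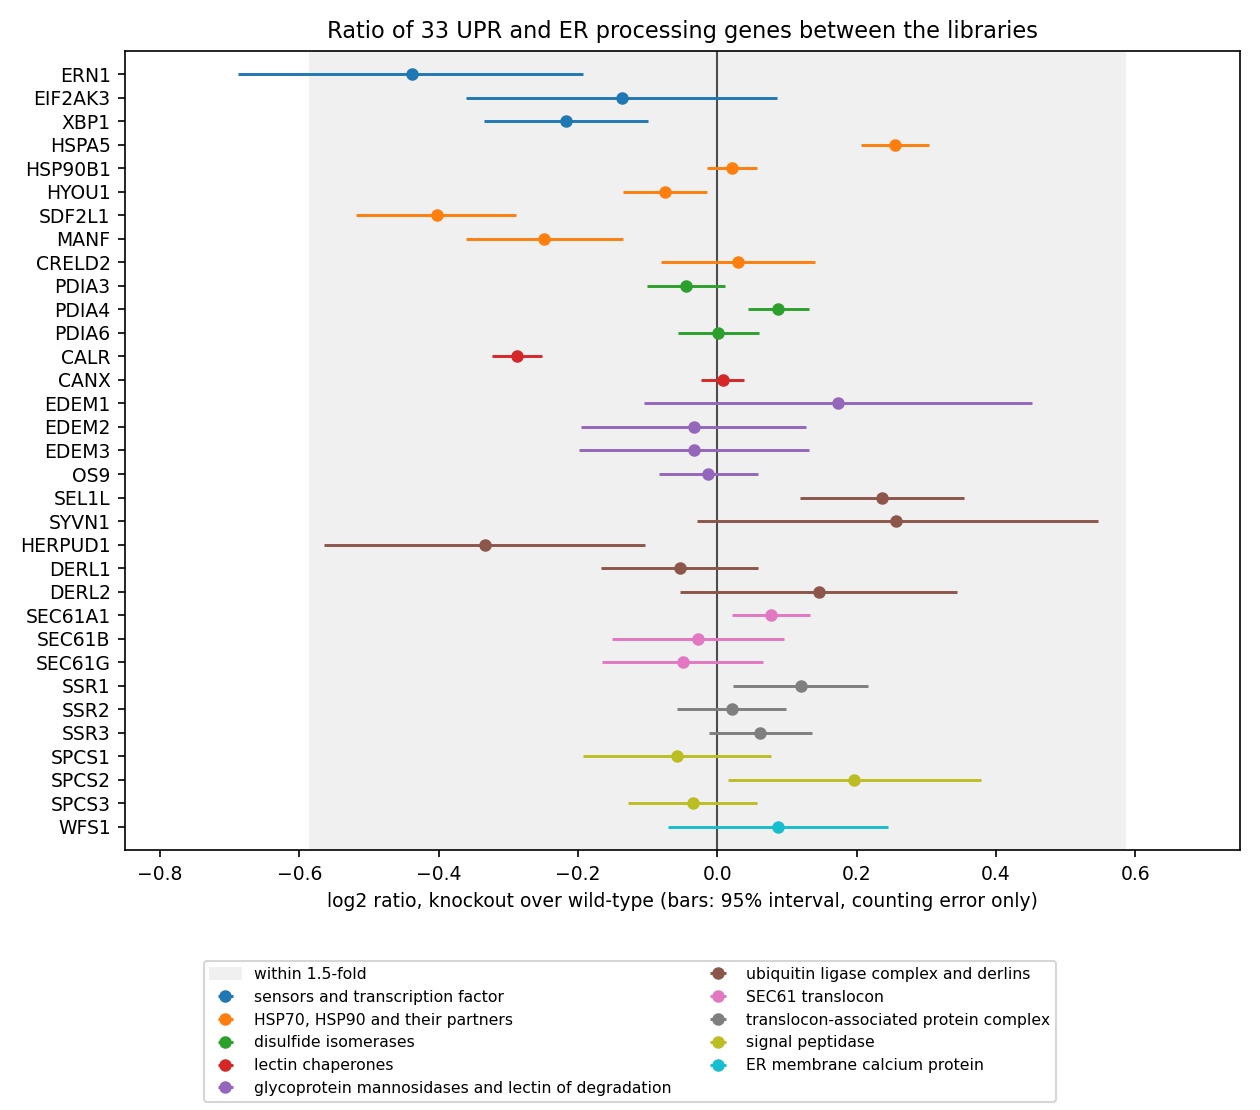
Log2 ratio of knockout over wild-type for the 33 expressed genes, coloured by role, with bars for the exact 95% interval (counting error only) and a grey band for differences under 1.5-fold. All points lie inside the band, and the bar of ERN1 is the one that leaves it, reaching -0.69.

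The sensor genes ERN1 and EIF2AK3 and the transcription factor XBP1 lay below 0. ERN1, which encodes the kinase and RNase IRE1, had 331 wild-type and 232 knockout counts, or 9.84 and 7.26 CPM. In this and the following sentences the wild-type value comes first. Its ratio of -0.44 (-0.69 to -0.19), 1.36-fold lower in the knockout library, was the lowest of the 33, while its 50 nearest expressed neighbours on chromosome 17 had a median of 0.08. XBP1, the transcription factor made from the mRNA that IRE1 splices, had 1311 and 1072 counts and a ratio of -0.22 (-0.33 to -0.10). A gene-level count does not tell spliced from unspliced XBP1 mRNA. EIF2AK3, the gene of the kinase PERK, had 360 and 311 counts, and the interval of its ratio of -0.14 (-0.36 to 0.09) included no difference. The sensor ATF6, one of the further pathway genes below, was at -0.08 (-0.22 to 0.06). ATF6B lay on the other side of 0 at 0.20 (-0.0002 to 0.41), and both intervals included no difference. The quotient of EIF2AK3 to ERN1 counts was 1.09 in wild-type and 1.34 in knockout cells, a change of 1.23-fold (0.977 to 1.56) whose interval included no change.

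Among the chaperones, HSPA5 and its partners lay on both sides of 0. HSPA5 encodes BiP, the HSP70 chaperone of the ER that also holds the stress sensors inactive, and had 6519 and 7394 counts, or 194 and 231 CPM. Its ratio was 0.26 (0.21 to 0.30), 1.19-fold higher in the knockout library. SDF2L1, a partner of the ER HSP70 system, had 1475 and 1060 counts and lay on the other side of 0 at -0.40 (-0.52 to -0.29). MANF, a small secreted protein that binds BiP, had 1440 and 1152 counts and a ratio of -0.25 (-0.36 to -0.14). HYOU1, a large HSP70 relative that exchanges the nucleotide of BiP, was at -0.08 (-0.14 to -0.02), from 4679 and 4220 counts. With total counts, with or without the 5 highest genes, its interval included no difference. HSP90B1, the ER HSP90 known as GRP94, had 12353 and 11912 counts and a ratio of 0.02 (-0.02 to 0.06). CRELD2, a secreted ER stress protein, was at 0.03 (-0.08 to 0.14), from 1360 and 1319 counts.

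The disulfide isomerases, which form and rearrange disulfide bonds, lay near 0. PDIA4 had 8218 and 8299 counts and a ratio of 0.09 (0.04 to 0.13). PDIA6 was at 0.00 (-0.06 to 0.06) and PDIA3, which works with the lectin chaperones, at -0.05 (-0.10 to 0.01). The expected counts of PDIA3 were fractional, which means that some reads were shared out between similar sequences.

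The lectin chaperones, which hold glycoproteins while they fold, parted. CALR, calreticulin of the ER lumen, had 14483 and 11280 counts, or 430 and 353 CPM, and a ratio of -0.29 (-0.32 to -0.25), 1.22-fold lower in the knockout library. CANX, its membrane-bound relative calnexin, had 17324 and 16550 counts, or 515 and 518 CPM, and a ratio of 0.01 (-0.02 to 0.04). The 50 neighbours of CALR on chromosome 19 had a median of 0.03.

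Quotients of counts within a library do not depend on the scaling between libraries. The pairs given here and below were chosen after the values were seen. There were 1.2 CANX counts for each CALR count in wild-type and 1.47 in knockout cells, a 1.23-fold change (1.19 to 1.27). The quotient of HSPA5 to CALR went from 0.45 to 0.655, or 1.46-fold (1.4 to 1.52), and that of HSPA5 to SDF2L1 from 4.42 to 6.98, or 1.58-fold (1.45 to 1.72). HSPA5 to MANF went from 4.53 to 6.42 and HSPA5 to HYOU1 from 1.39 to 1.75. The change was smaller against HSP90B1, from 0.528 to 0.621, or 1.18-fold (1.13 to 1.23). HSPA5 had a higher ratio than each of these 5 genes, so its quotients to them had to rise, whichever scaling is used.

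Genes of ER-associated degradation, which returns misfolded proteins to the cytosol for the proteasome, were mixed in direction. SEL1L and SYVN1 encode the adaptor and the ubiquitin ligase of one complex. SEL1L had 1110 and 1243 counts and a ratio of 0.24 (0.12 to 0.35), and SYVN1 had 191 and 217 counts and a ratio of 0.26 (-0.03 to 0.55). The quotient of the pair was 5.81 and 5.73. HERPUD1, an ER stress-induced membrane protein of the same complex, had 366 and 276 counts and a ratio of -0.33 (-0.56 to -0.10). SEL1L to HERPUD1 went from 3.03 to 4.50, or 1.48-fold (1.24 to 1.78).

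The derlins, membrane proteins of the retrotranslocation step, included the 1 gene not expressed. DERL3 had 0 wild-type counts and 1 knockout count, and 3 counts correspond to 0.0892 and 0.0938 CPM. DERL1 had 1345 and 1231 counts and a ratio of -0.05 (-0.17 to 0.06), and DERL2 had 410 and 431 counts and a ratio of 0.15 (-0.05 to 0.34). Mannose trimming by the EDEM proteins marks glycoproteins for degradation, and the lectin OS9 reads that mark. EDEM1 was at 0.17 (-0.10 to 0.45) from 210 and 225 counts, EDEM2 and EDEM3 were both at -0.03, and OS9 at -0.01 (-0.08 to 0.06) from 3321 and 3128 counts. All 4 intervals included no difference.

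The translocation machinery lay between -0.06 and 0.20, with SPCS2 the highest. Of the SEC61 channel, the pore subunit SEC61A1 had 5189 and 5203 counts and a ratio of 0.08 (0.02 to 0.13), while the small subunits SEC61B (1113 and 1038 counts) and SEC61G (1270 and 1166 counts) were at -0.03 and -0.05. With total counts all 3 lay above 0. The quotient of SEC61A1 to SEC61B was 4.66 and 5.01, and its change of 1.08-fold (0.979 to 1.18) had an interval that included no change, as did that of SEC61G to SEC61B (0.984-fold, 0.875 to 1.11). SSR1, SSR2 and SSR3, subunits of the translocon-associated protein complex beside the channel, were at 0.12, 0.02 and 0.06, with 1717 and 1773 counts for SSR1. Their 3 quotients changed by 0.972-fold to 1.07-fold, with intervals that included no change. Of the signal peptidase subunits, SPCS1 was at -0.06 and SPCS3 at -0.04, and SPCS2 at 0.20 (0.02 to 0.38) from 482 and 525 rounded expected counts. SPCS2 was higher against SPCS3 by 1.17-fold (1.02 to 1.35) and against SPCS1 by 1.19-fold (1.02 to 1.4). The expected counts of SPCS2 were fractional. WFS1, wolframin of the ER membrane, had 656 and 662 counts and a ratio of 0.09 (-0.07 to 0.24).

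Levels differed far more between the genes than between the libraries. Per kilobase of the principal transcript, CALR was highest with 226 CPM in wild-type and 185 CPM in knockout cells. HSP90B1 followed with 128 and 130, CANX with 121 and 121 and PDIA4 with 84.1 and 89.4 CPM per kilobase. HSPA5 stood at 49.6 and 59.2. The sensors and the ligase were at the low end, with 1.25 and 0.921 CPM per kilobase for ERN1, 2.30 and 2.09 for EIF2AK3 and 1.81 and 2.16 for SYVN1. EDEM1 was at 1.02 and 1.14. XBP1, at 21.1 and 18.1, was well above the sensor that splices its mRNA. These levels use 1 transcript length per gene and shift where another isoform is the main one.

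The genomic surroundings of the 33 genes lay near 0. The median ratio of the up to 50 nearest expressed neighbours ran from -0.13 around SPCS2 to 0.08 around SEL1L and ERN1. SPCS2 itself was at 0.20, on the other side of 0.

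Promoter windows of 300 bases, from 250 before to 50 after a gene's start, were matched for 30 of the 34 genes. Some genes, such as CANX, have windows at several starts, and a motif in any of them counted. Genes with more windows thus had more room for a match. ERSE was in the windows of 7 (CALR, CANX, CRELD2, HSP90B1, HSPA5, PDIA6 and XBP1), and in 0.0916% of the 27305 genes with a window. ERSE-II was in those of HERPUD1, HYOU1 and SDF2L1, and in 0.0696% of all. The UPR element TGACGTGG was in HYOU1 and SSR3, and in 0.927% of all. Among the expressed genes with a window these shares were 0.169% for ERSE, 0.137% for ERSE-II and 1.27% for the UPR element. The full cAMP response element TGACGTCA was in 0 of the 30, in 2.25% of all and in 3.89% of the expressed genes. With shares this small, 0 of 30 does not set these genes apart. The core TGACG, which the full element and the UPR element also contain, was in 12 of the 30. It was in 28.4% of all genes and in 41.1% of the expressed ones. All motifs were searched on both strands, and a match is a description of the letters only. The 34 genes were chosen as UPR and ER processing genes, so a higher share of UPR elements among them is not a separate result.

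The 3 genes with ERSE-II all lay below 0 with intervals below no difference, at -0.40 for SDF2L1, -0.33 for HERPUD1 and -0.08 for HYOU1. The interval of HYOU1 included no difference with total counts, with or without the 5 highest genes. The 7 with ERSE ran from -0.29 for CALR to 0.26 for HSPA5, with a median of 0.01 and 2 below 0. The medians of the genes without each motif were 0.02 for ERSE-II and -0.01 for ERSE. With 3 genes and 1 library per genotype this split is a description, and it was seen after the ratios were known.

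**Figure D3:**
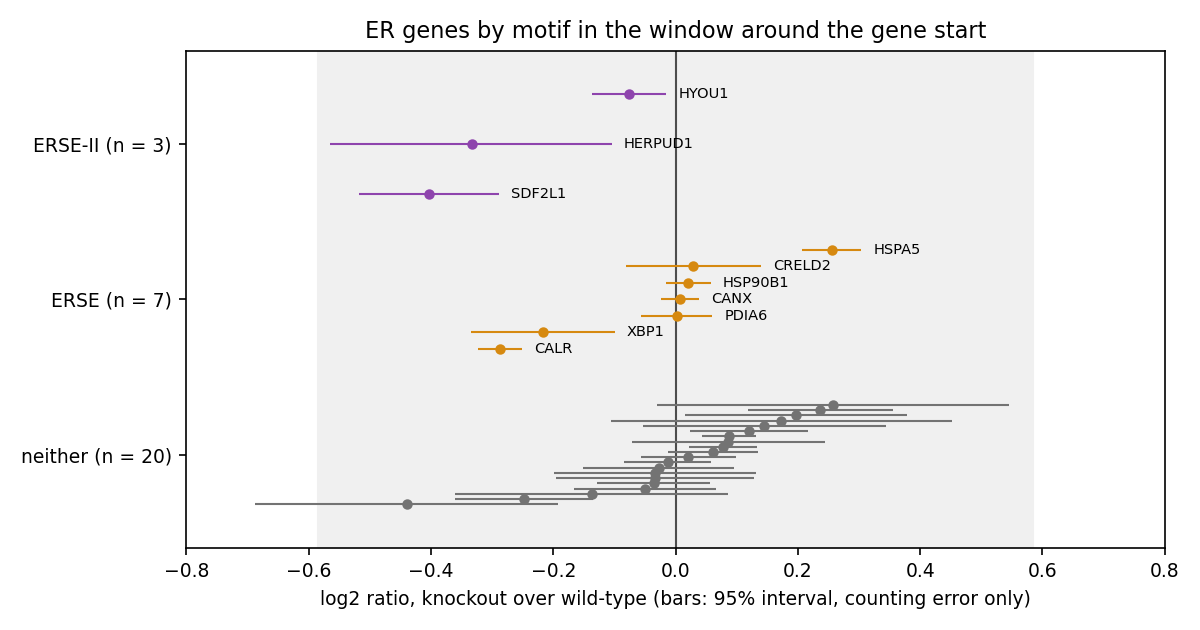
Log2 ratio of knockout over wild-type for the 30 genes with a promoter window, by element found in any window of the gene (ERSE-II, ERSE or neither). Bars give the exact 95% interval (counting error only), and a grey band marks differences under 1.5-fold. The 3 genes with ERSE-II lie between -0.40 and -0.08, and those with ERSE lie on both sides of 0, from CALR at -0.29 to HSPA5 at 0.26.

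The other genes of the pathway were given by 9 lists with 156 genes outside the 34, of which 155 were matched (all but ORAI1) and 150 expressed. A few genes are in more than 1 list. In these, 73 of 150 lay below 0 with a median of 0.01, where 48.8% of all expressed genes lay below 0. With an interval that excluded no difference, 2 were at least 1.5-fold lower and 0 at least 1.5-fold higher. Over all expressed genes these shares were 5.5% and 5.25%, and 2 and 0 of 150 are no larger. TRIB3, a pseudokinase induced by ATF4 and CHOP in the PERK branch, had 926 and 493 counts and a ratio of -0.84 (-0.997 to -0.68). ERO1B, an oxidase that recharges disulfide isomerases, had 133 and 81 counts and a ratio of -0.64 (-1.06 to -0.23). Of the 14 transducers and transcription factors, 7 lay below 0, with a median of -0.02. The intervals of 4 lay below and of 5 above no difference, where 25.5% and 26.4% of all expressed genes had such intervals. The genes that follow were named after their values were seen. In the PERK branch, ATF4, the factor translated when PERK is active, had a ratio of -0.46 (-0.51 to -0.41), and DDIT3, which encodes CHOP, -0.46 (-0.76 to -0.17). PPP1R15A, a phosphatase subunit of the same branch that reverses the action of PERK, lay on the other side at 0.24 (0.08 to 0.41). NFYA, a subunit of the factor that binds CCAAT, was at 0.57 (0.37 to 0.76), and MBTPS2, a protease that releases ATF6 from the membrane, at 0.56 (0.21 to 0.92).

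Of the lists of chaperone systems, the ER HSP70 system had 7 of 12 genes below 0 and a median of -0.02. Farthest from 0 in that list was BAG6, a cytosolic chaperone of membrane protein insertion, at 0.43 (0.35 to 0.52). The disulfide isomerases and oxidases had 14 of 26 below 0 and a median of -0.02. Among them P4HB, named after its value was seen, was at -0.53 (-0.56 to -0.50), and its neighbours on chromosome 17 had a median of -0.51. Glycan trimming and calnexin cycle genes had 3 of 11 below 0 and a median of 0.09. The intervals of 0 lay below and of 5 above no difference, where 25.5% and 26.4% of all expressed genes had such intervals. With total counts 7 lay above, and with DESeq2 size factors or the upper quartile 1 lay below. The 5 were GANAB (0.36), MAN1A1 (0.36), PRKCSH (0.31), MAN1A2 (0.24) and MOGS (0.21), glucosidase and mannosidase genes named after their values were seen. The mannosidase gene MAN1B1 of the same list was at -0.02 (-0.11 to 0.07). CLGN, a calnexin relative, was farthest from 0 in that list at -0.61 (-1.28 to 0.02), from 55 and 34 counts.

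Of 32 further degradation genes, 22 lay below 0, the median was -0.08, and the intervals of 15 lay below no difference and of 2 above it. Over all expressed genes the shares of such intervals were 25.5% and 26.4%. With total counts 17 lay below 0, the median was -0.01, and 9 intervals lay below and 5 above no difference. NPLOC4, a cofactor of the segregase VCP, was farthest from 0 at -0.58 (-0.66 to -0.51), and its neighbours on chromosome 17 had a median of -0.50. The part of that stretch in the ratios of NPLOC4 and P4HB was not tested. The oligosaccharyltransferase, which adds glycans to nascent proteins, lay on the other side, with 3 of 11 below 0 and a median of 0.07. With total counts 1 of the 11 lay below 0, and with DESeq2 size factors 4. Of all expressed genes 48.8% lay below 0 with TMM, 39.1% with total counts and 51.7% with DESeq2 size factors. KRTCAP2, a subunit of the oligosaccharyltransferase, was farthest from 0 in that list at 0.15 (0.02 to 0.28).

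For the signal recognition particle and its receptor, which bring ribosomes to the ER, 3 of 8 lay below 0 with a median of 0.06, and the receptor subunit SRPRA was at 0.39 (0.23 to 0.55). Partners of the translocon and signal peptidase had 12 of 25 below 0 and a median of 0.02. GET1, a receptor subunit for tail-anchored proteins, was farthest from 0 among them at -0.49 (-0.73 to -0.26). KDEL receptors and ER calcium genes had 5 of 15 below 0 and a median of 0.08, with the calcium sensor STIM2 at 0.45 (0.30 to 0.61).

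**Figure D4:**
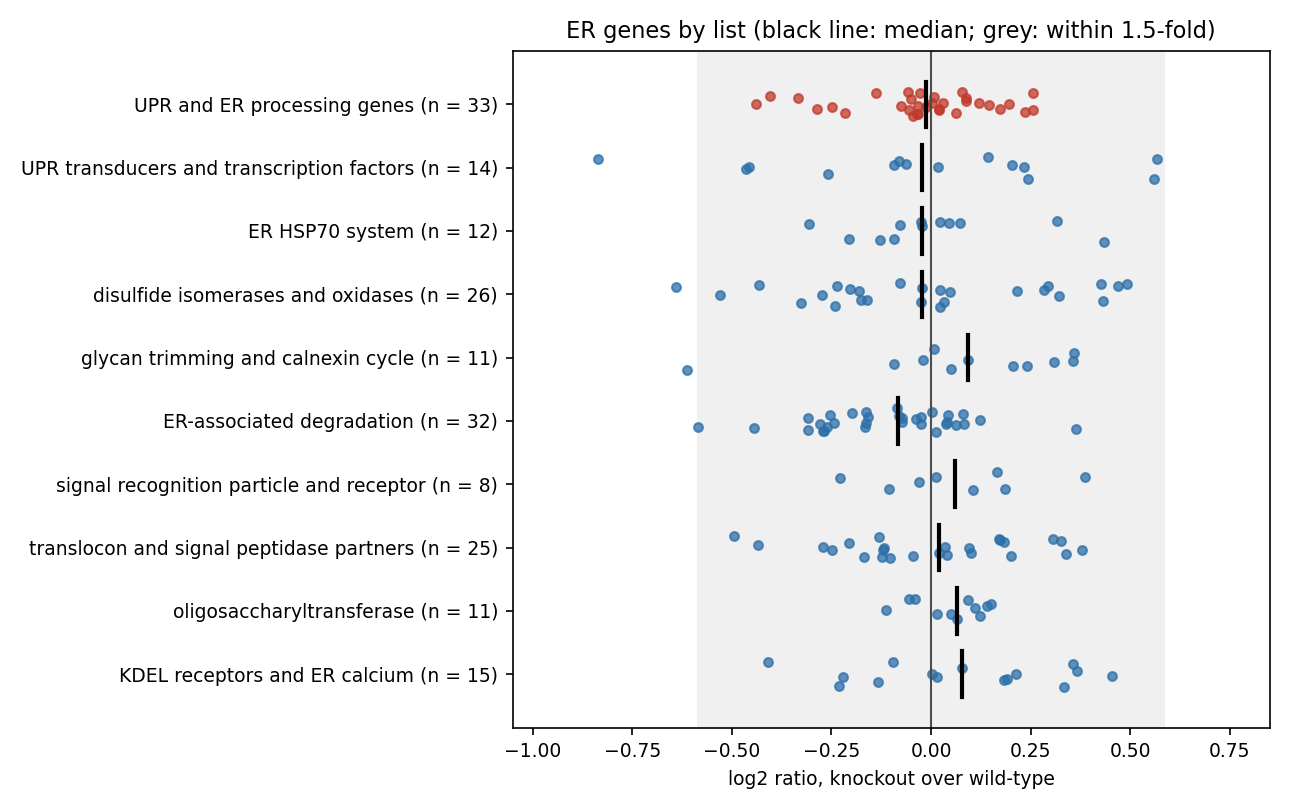
Log2 ratio of knockout over wild-type for the 33 expressed UPR and ER processing genes (red) and for the expressed genes of the 9 further lists (blue), 1 point per gene, with a black line for the median and a grey band for differences under 1.5-fold. The medians lie between -0.08 (ER-associated degradation) and 0.09 (glycan trimming), and the lowest point is TRIB3 at -0.84.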

How the data were processed

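For each gene the authors deposited an expected count in 1 wild-type and 1 knockout library, with no scaling between them. The submitters' processing notes name build hg19 and the tools cutadapt (version 2.0), STAR (version 2.4.2a) and RSEM (version 1.2.26). Which annotation release, strand setting and filters were used is not stated in these sources. RSEM shares out reads that map to several genes. Of 57820 identifiers, 52338 (90.5%) matched GENCODE 29 (GRCh38) by Ensembl identifier without version. Unmatched ones, with 37.0% (wild-type) and 35.2% (knockout) of the counts, stayed in the totals. No hg19 coordinate is given. Sequences are RefSeq's, and GENCODE gave gene order, with 25 neighbours on each side, and the length of the longest principal transcript.

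Expected counts were rounded and scaled with TMM (edgeR 4.0.16, R 4.3.3), with a prior count of 0.5 and a filter of mean CPM of at least 1. Intervals are Clopper-Pearson intervals of the 2 counts, conditional on their sum, or, for quotients, from the exact conditional odds ratio. With 1 library per group no p-value was computed. The calculation of ratios and intervals was checked on simulated counts. All 34 genes are named, and from each further list those past 1.5-fold and otherwise the one farthest from 0. Further genes of these lists are named outside this rule, most of them after their values were seen. The genes and lists were chosen with earlier results of these data known. Alternatives were other scalings (total counts, DESeq2 1.42.0 size factors, upper quartile, total counts without the 5 highest genes), other filters, a prior count of 2 and unrounded counts. Protein sequences were not analysed here.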

Additional observations from a re-analysis of the deposited data

How the results depend on the processing

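Under each alternative tried, 0 of the expressed genes differed by 1.5-fold or 2-fold with an interval that excluded no difference. The number below 0 was 17 by TMM and 8 with total counts, and lay between 12 and 20 under the other settings, since most ratios are near 0 and a small shift of scale moves many across it. The median of the genes ran from -0.03 with DESeq2 size factors to 0.06 with total counts, and that of all expressed genes from -0.01 to 0.08. With total counts 14 intervals lay above no difference in place of 6, and 10 with total counts without the 5 highest genes, where 35.2% and 29.5% of all expressed genes had such intervals. The number within 1.2-fold was 27 to 29. CALR and HERPUD1 came inside with total counts, and HSPA5, SEL1L, SYVN1 and SPCS2 went outside. Depth limits the low genes most, such as SYVN1 and EDEM1. No paired analysis was possible because there was 1 library per genotype and the labels give no replicate numbers. For the same reason no library could be left out.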
